A study of Oryza sativa with 4 samples.

Results

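The plastid methylerythritol phosphate (MEP) pathway of rice was followed through 8 loci, of 52795 loci that the array carried. The loci were chosen by name: DXS1 (LOC_Os05g33840), DXS3 (LOC_Os07g09190), DXR (LOC_Os01g01710), CMS (LOC_Os01g66360), CMK (LOC_Os01g58790), MCS (LOC_Os02g45660), HDS (LOC_Os02g39160) and HDR (LOC_Os03g52170). Each had 1 probe, printed as 1 spot. RNA came from whole Oryza sativa seedlings of the japonica cultivar Nipponbare, 14 days old and raised in soil in a greenhouse. Wild type plants (n = 2 arrays) were compared with transgenic line 40 (n = 2 arrays), a Nipponbare line that overexpresses LOC_Os02g43330, the class I HD-ZIP gene HOX24. The series design describes the arrays of each group as biological replicates. Line 40 was the only transgenic line, so its differences cannot be assigned to the transgene alone, and the promoter that drives the transgene was not given in the sources used here.

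The MEP pathway is the plastid route to isopentenyl diphosphate and dimethylallyl diphosphate, the building blocks of all isoprenoids. DXS condenses pyruvate with glyceraldehyde 3-phosphate, and DXR, CMS, CMK, MCS, HDS and HDR then act in that order. In leaves the products feed carotenoids, the phytol tail of chlorophyll, tocopherols and plastoquinone, and also gibberellins, abscisic acid and the diterpenoid phytoalexins of rice. DXS is widely regarded as a controlling step. Among the rice genes, DXS1 is the housekeeping form, and DXS3 has been linked to defence and phytoalexin production.

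The overexpressed gene HOX24 checked the labels: its processed signal read 1449 and 2116 in wild type seedlings, against 229115 and 280179 in line 40. Over all loci, 36902 were tested and 766 passed the limma threshold (adjusted p below 0.05), 343 higher and 423 lower in line 40. The higher share of these calls was 44.8%, against 61.8% after quantile normalization, 57.1% after median scaling and 69.5% after normexp background correction. Dropping wild type replicate 1 lowered this share to 18.5%, and dropping wild type replicate 2 lowered it to 16.8%. Across tested loci, replicate arrays correlated at Pearson's r of 0.983 (wild type) and 0.991 (line 40), and arrays of different groups at 0.963 to 0.977; loci are not independent replicates. Photosynthetic and root markers were both detected in the seedlings, with all 7 leaf markers and all 8 root markers tested and none at 0.

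None of the 8 MEP loci passed the limma test over all loci, where 2.08% of loci passed in either direction (0.929% higher and 1.15% lower). At an unadjusted limma p below 0.05 there were 3 of 8, against 24.9% of all loci (10% higher and 14.8% lower): DXS1 and CMK, with higher values in line 40, and DXS3, with lower values. The log2 differences (line 40 minus wild type) ran from -0.53 for DXS3 to 0.72 for DXS1, with a median of 0.16, against -0.06 over all tested loci, and 5 of 8 lay above 0, against 43.7% of all loci. The line 40 arrays did not overlap the wild type arrays for 6 of 8 loci, 4 higher and 2 lower, while 59.4% of all tested loci showed no overlap (25.1% higher, 34.3% lower). All 8 probes were well above background on all 4 arrays and 0 of their spots were saturated or uneven. With 2 arrays per group the moderated SE of a member was 0.14 to 0.20 on the log2 scale.

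**Figure D1:**
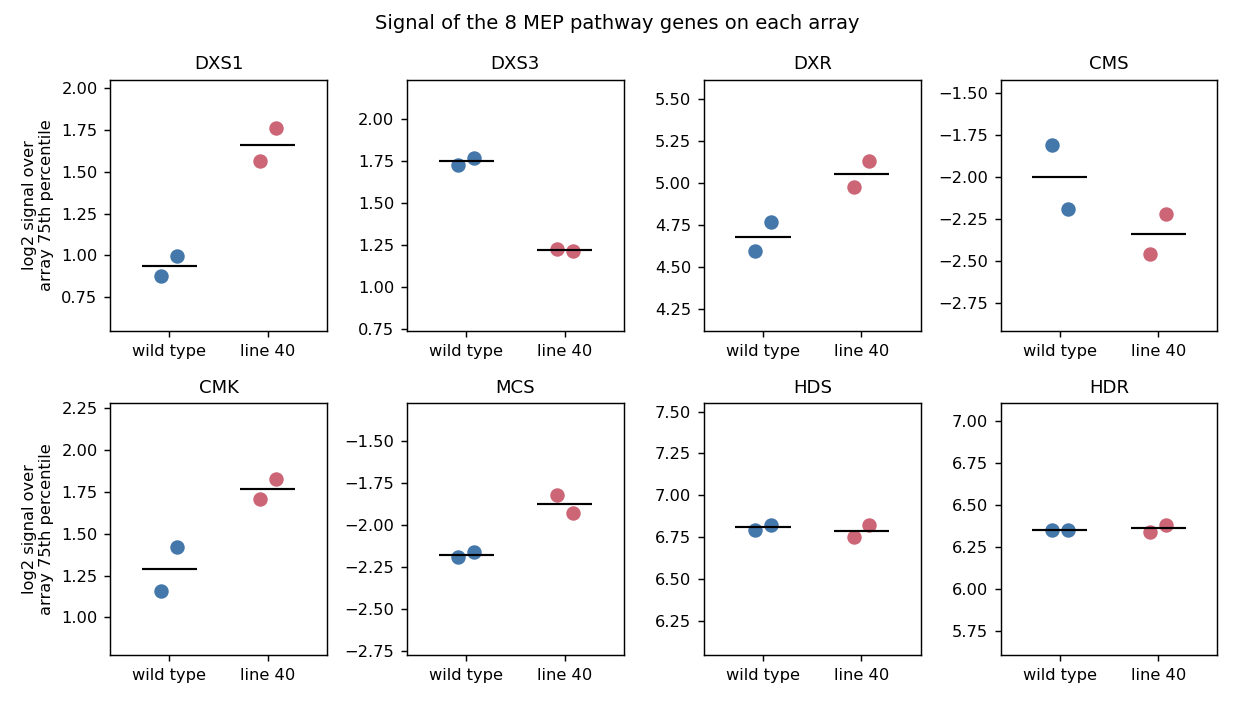
Normalized log2 signal (processed signal over the 75th percentile of its array, as log2) of the 8 MEP pathway genes on the 2 wild type arrays (blue) and the 2 line 40 arrays (red); points are arrays, black lines are group means, and every panel spans the same log2 range around its own centre. The groups stand apart upward for DXS1, DXR, CMK and MCS and downward for DXS3 and CMS (CMS by only 0.03). They overlap for HDS and HDR, and 59.4% of all tested loci stand apart.

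DXS1 and DXS3, which encode forms of the same first enzyme, lay on opposite sides of 0. The processed signal of DXS1 read 673 and 973 in the wild type seedlings, against 1192 and 1457 in line 40. Both line 40 arrays were brighter than both wild type arrays, before and after scaling. After scaling, wild type DXS1 averaged 0.94 ± 0.08 and line 40 DXS1 1.66 ± 0.14 on the log2 scale (both SD, n = 2). Line 40 was therefore higher by 0.72 (SE 0.16), or 1.65-fold, and this missed the threshold (limma adjusted p = 0.0899). Its 95% interval from limma's moderated error ran from 0.32 to 1.13, and the difference stood at the 95.5th percentile of all tested loci. After median scaling DXS1 passed (0.90, limma adjusted p = 0.0313), but so did many more loci. Under it 3260 of 36902 loci passed, 1861 of them higher, against 766 and 343 in the main fit. That scaling also moved the median of all loci from -0.06 to 0.11, and relative to this median DXS1 stood at 0.79 under both scalings.

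DXS3 showed the opposite order. Its processed signal read 1214 and 1665 in the wild type, against 946 and 1001 in line 40, so that both line 40 arrays were dimmer than both wild type arrays. The scaled log2 means were 1.75 ± 0.03 for the wild type and 1.22 ± 0.0085 for line 40 (both SD, n = 2). The difference was -0.53 (SE 0.14), which corresponds to 1.44-fold lower signal, and it missed the threshold (limma adjusted p = 0.121). The 95% interval ran from -0.89 to -0.16, and the difference stood at the 16.6th percentile of all tested loci. Relative to the median of all loci it was -0.46.

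The response of the pair was compared within each array, where any scaling factor of the array cancels. Log2 DXS3 signal minus log2 DXS1 signal came to 0.85 and 0.77 in the wild type, against -0.33 and -0.54 in line 40. Because different probes have different brightness per transcript, only the change in this value carries meaning, not its sign. The wild type mean was 0.81 ± 0.05 (SD, n = 2) and the line 40 mean -0.44 ± 0.15 (SD, n = 2). DXS3 thus shifted against DXS1 by -1.25 on the log2 scale, a 2.38-fold change of their ratio. The groups did not overlap, which was already fixed by the scaled values of each gene, apart upward for DXS1 and downward for DXS3. The two-sided exact permutation test gave p = 0.333, the smallest value that this test can give with 2 arrays against 2, so the test cannot pass 0.05 here. Groups that do not overlap always give this value, so it adds nothing to the values of the single genes. How often other pairs of loci shift this far was not tested. The shift was -1.25 after quantile normalization, -1.26 after cyclic loess and -1.11 after normexp. It was -1.35 to -1.15 with 1 array left out, where non-overlapping groups could not reverse it. The other alternatives could not change the shift.

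**Figure D2:**
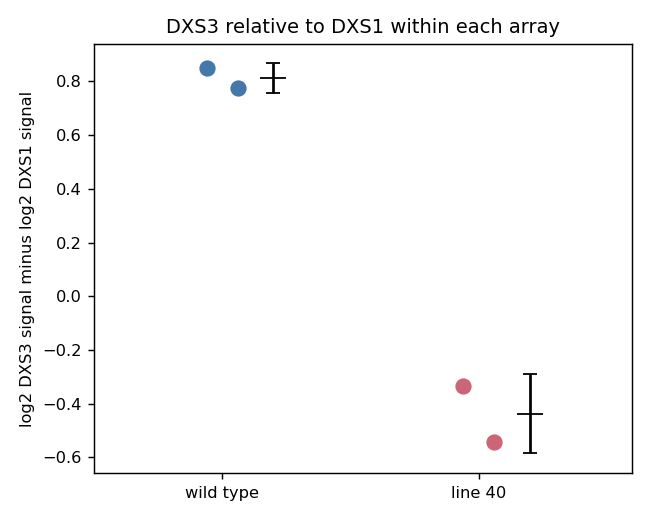
Log2 DXS3 signal minus log2 DXS1 signal on each of the 2 wild type arrays (blue) and 2 line 40 arrays (red), with group mean and SD in black beside the points. Both line 40 arrays lie more than 1 log2 unit below both wild type arrays, and the position of 0 depends on the probes and has no meaning.

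A further locus, LOC_Os06g05100, had been listed by hand with the DXS genes, but the gene table used here gives no name for it. Its processed signal read 30.3 and 28.1 in the wild type, against 16.6 and 11.1 in line 40, and it was well above background on 3 of the 4 arrays. The log2 difference of -1.08 (SE 0.31) missed the threshold (limma adjusted p = 0.129), and it was -0.27 after normexp, -0.78 after quantile normalization and -0.77 after cyclic loess. By brightness it belonged to the lowest 10% of loci, whose median difference was -0.50.

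The next enzyme, DXR, reduces and rearranges deoxyxylulose phosphate to methylerythritol phosphate. Its processed signal read 8843 and 13270.2 in the wild type, against 12691 and 15049.6 in line 40. Unscaled, the brighter wild type array thus lay above the dimmer line 40 array. After scaling the groups separated, with log2 means of 4.68 ± 0.12 for the wild type and 5.05 ± 0.11 for line 40 (both SD, n = 2). The difference of 0.37 (SE 0.16) missed the threshold (limma adjusted p = 0.230), and it was 0.14 after quantile normalization and 0.17 after cyclic loess.

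CMS, CMK and MCS build and cyclise the cytidyl intermediate of the pathway. CMK, the kinase, had signals of 818 and 1305 in the wild type and 1318 and 1524 in line 40. Its normalized values did not overlap, and the difference was 0.48 (SE 0.17, limma adjusted p = 0.174). MCS, which closes the ring, had signals of 80.2 and 109 in the wild type and 114 and 113 in line 40, with a difference of 0.30 (SE 0.15, limma adjusted p = 0.267). MCS was 0.43 after quantile normalization and 0.19 after normexp.

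CMS, which attaches the cytidyl group, lay below 0. Its signals were 104 and 106.8 in the wild type and 73.5 and 92.6 in line 40, and after scaling the nearest arrays of the groups were only 0.03 apart on the log2 scale. The difference of -0.34 (SE 0.20, limma adjusted p = 0.353) was -0.15 without wild type replicate 1, -0.53 without wild type replicate 2 and -0.22 without line 40 replicate 1. Tested loci of like brightness to CMS (decile 4 of 10, counted from the dimmest) had a median difference of -0.15.

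The 2 last enzymes, HDS and HDR, carry iron-sulfur clusters and take up electrons in the plastid. HDS had signals of 40750 and 55320.3 in the wild type and 43529 and 48679 in line 40, and HDR had 29998 and 39896 in the wild type and 32692 and 35972 in line 40. For both genes the line 40 arrays lay between the wild type arrays before scaling. Scaled HDS averaged 6.81 ± 0.02 for the wild type and 6.79 ± 0.05 for line 40 (both SD, n = 2), a difference of -0.02 with a 95% interval from -0.39 to 0.34 (limma adjusted p = 0.933). Scaled HDR averaged 6.35 ± 0.0013 and 6.36 ± 0.03 (both SD, n = 2), a difference of 0.01 with an interval from -0.36 to 0.37 (limma adjusted p = 0.977).

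The direction for HDS and HDR depended on the scaling. HDS was -0.42 after quantile normalization, -0.31 after cyclic loess and 0.15 after median scaling. HDR was -0.35, -0.26 and 0.18 under the same settings. Both probes belong to the brightest 10% of tested loci, where the median difference was 0.13 under the main scaling. DXS1, DXR, CMK and MCS lay above 0, and DXS3 and CMS below 0, under all 13 alternatives. Many of these could not have reversed the direction. The other filters, averaging of probes, keeping uneven spots and the replicate block leave the difference of these genes unchanged. Leaving out any array could not reverse it, because the groups did not overlap for these genes. Only quantile, cyclic loess and median scaling and normexp could have changed the direction, and they did not. The median of the 8 members was 0.16 in the main fit, -0.03 after quantile normalization, -0.02 after cyclic loess and 0.33 after median scaling.

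**Figure D3:**
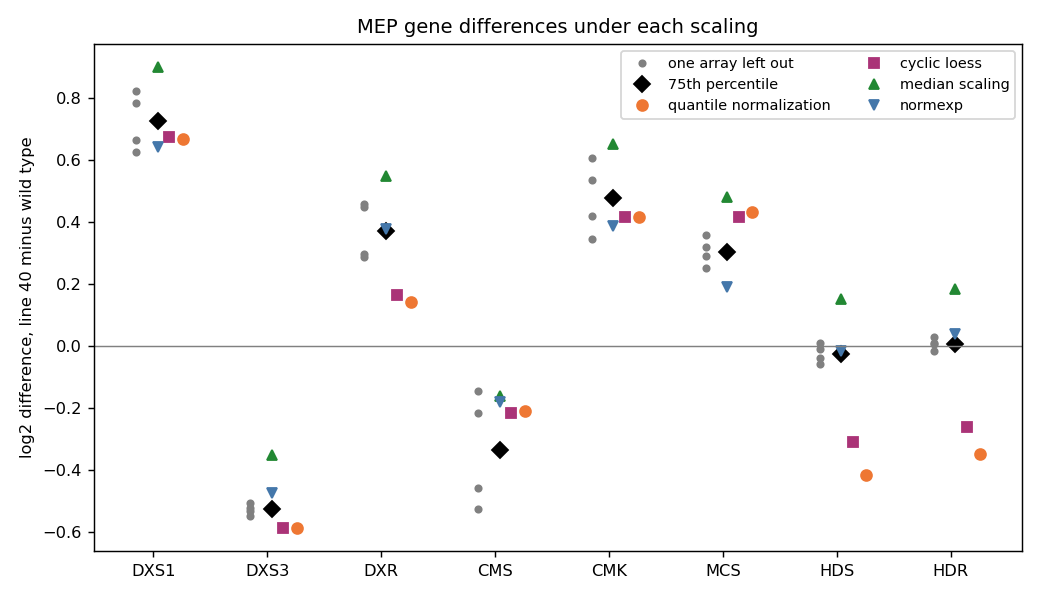
Log2 difference (line 40 minus wild type) of each MEP gene under the main 75th percentile scaling (black diamonds), the other scalings and background correction (coloured), and with 1 array left out (grey points). DXS1 is between 0.63 and 0.90 and DXS3 between -0.59 and -0.35 in every case shown, while HDS and HDR cross 0.

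Other isoprenoid genes were taken from hand-written lists. The plastid list held loci listed for use of the pathway's products, and also LOC_Os06g05100 (-1.08), described above with the DXS genes. Of its 10 loci 9 were tested, LOC_Os06g05100 among them, and 7 lay above 0 (43.7% of all loci did). Only 1 rose (0.929% of all loci did), GGR (LOC_Os02g51080). GGR is the geranylgeranyl reductase (CHLP in the gene table) that makes the phytyl chain of chlorophyll and tocopherol. Its signals were 38774 and 50386 in the wild type and 84959 and 93885 in line 40, so both line 40 arrays were brighter. The difference of 1.04 (SE 0.14, limma adjusted p = 0.0452) corresponds to 2.05-fold. The call was lost with any single array left out (limma adjusted p 0.0621 to 0.178), with quantile normalization (0.65), with cyclic loess (0.73), without the filter on dim probes and with the replicate block (limma adjusted p = 0.0752).

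The list's median was 0.46. LOC_Os07g36190 and LOC_Os07g39270, which the gene table does not name, lay at 0.78 (SE 0.16, limma adjusted p = 0.0819) and 0.58 (SE 0.16, limma adjusted p = 0.120). The first of them passed after median scaling (0.95) and after normexp (0.81), and was 0.50 after quantile normalization and 0.56 after cyclic loess. The other probe of LOC_Os07g39270 lay at 0.10. The phytoene synthase genes PSY1, PSY2 and PSY3, which open carotenoid synthesis, lay at 0.46, 0.15 and -0.42, and SPS2, a solanesyl diphosphate synthase gene for plastoquinone, at 0.55 (limma adjusted p 0.149 to 0.552 for these 4). PSY3 was well above background on 3 of the 4 arrays, and the other probe of PSY1 lay at 0.60.

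The cytosol holds a second route to the same building blocks, the mevalonate pathway. Of 13 loci listed for it and its first prenyl products, 11 were tested (1 had no probe and 1 was not well above background) and none passed by limma, with 2 at an unadjusted p below 0.05, both higher (10% of all loci were). The median was 0.17 and 9 of 11 lay above 0, against 43.7% of all loci. HMG3 (LOC_Os08g40180), a gene for HMG-CoA reductase, the main control point of that route, lay at 0.43 (SE 0.16, limma adjusted p = 0.193), and HMG1 (LOC_Os02g48330), another reductase gene, at 0.0016. The unnamed loci LOC_Os09g07830 and LOC_Os02g01760 lay at 0.44 and 0.29 (limma adjusted p = 0.192 and 0.278). LOC_Os08g43170, also unnamed, had signals of 143 and 31.0 in the wild type and 14.1 and 15.7 in line 40, a difference of -2.14 (SE 0.84, limma adjusted p = 0.206). Leaving out wild type replicate 1 gave -0.83, and leaving out wild type replicate 2 gave -3.45, where it passed (limma adjusted p = 0.0222), and it also passed after median scaling.

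Diterpene cyclases take geranylgeranyl diphosphate from the plastid route to gibberellins and phytoalexins. Of 8 listed, 7 were tested and 3 rose, against 0.929% of all loci, with a median of 1.34; this list had already been seen to move in these samples, so its direction is not independent evidence. The phytoalexin genes KSL4 and KSL10, both diterpene synthases, rose by 3.34 (SE 0.21, limma adjusted p = 0.00897) and 2.84 (SE 0.18, limma adjusted p = 0.00988), and CPS2, a copalyl diphosphate synthase gene, by 1.49 (SE 0.16, limma adjusted p = 0.0286). Without the filter on dim probes none of the 3 passed (limma adjusted p = 0.0582, 0.0587 and 0.0739), a setting where only 23 of 52765 tested loci passed. CPS2 was also lost after normexp (0.49) and quantile normalization, and without wild type replicate 1 or either line 40 array. After normexp KSL4 was 1.66. In the wild type the processed signal of KSL4 read 15.3 and 26.8, and that of CPS2 13.3 and 20.3. These values are near the lowest signals well above background on the same arrays, 10.1 and 10.9. In line 40 KSL4 read 179 and 229, and CPS2 41.9 and 49.6. CPS4 missed the threshold (1.34, limma adjusted p = 0.0513), while it passed after normexp, after median scaling, when the probes of a locus were averaged and when only loci well above background on all 4 arrays were tested. The gibberellin pathway genes CPS1 and KS1 lay at 0.29 and -0.08. LOC_Os11g28530, the remaining tested locus of the list, has no name in the gene table. It lay at -0.06 (limma adjusted p = 0.846), with overlapping groups. In the same seedlings DXS3 lay at -0.53 and DXS1 at 0.72.

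**Figure D4:**
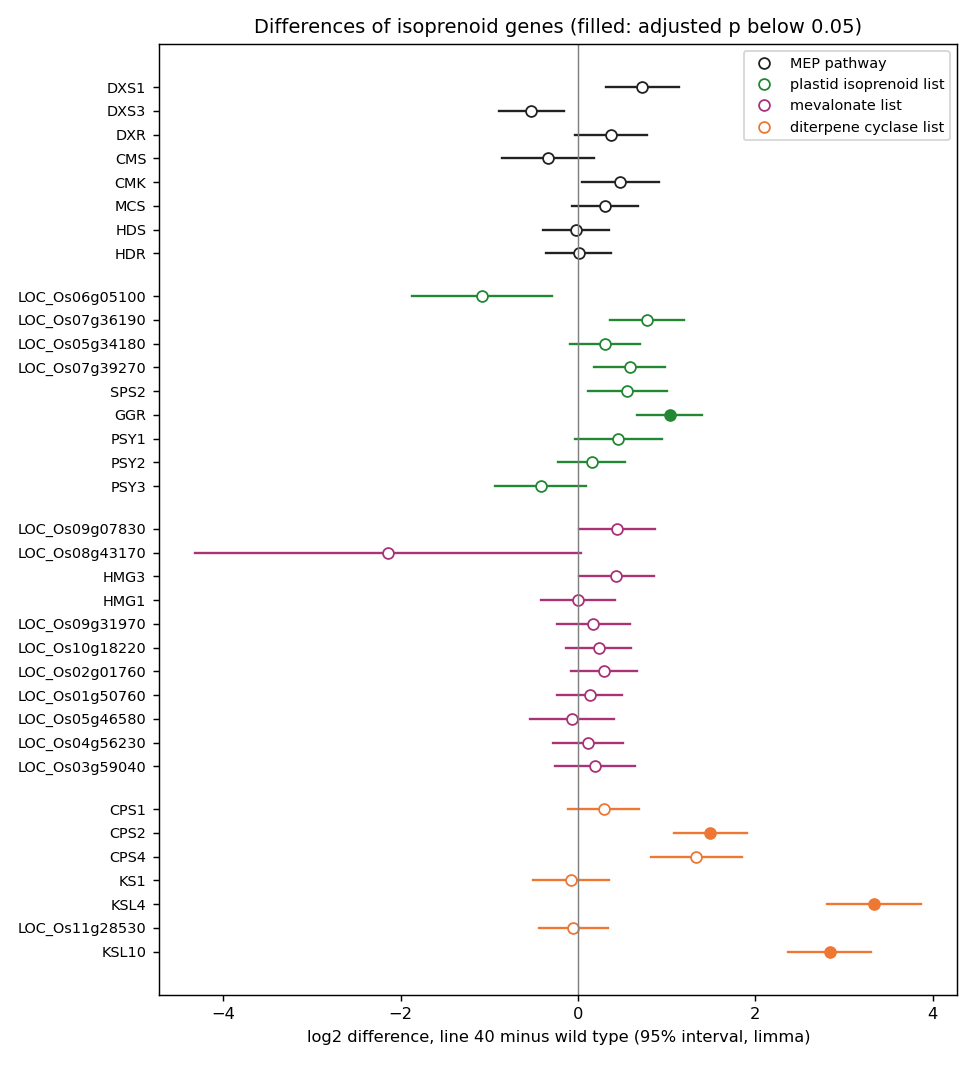
Log2 difference (line 40 minus wild type) with limma's 95% interval for the 8 MEP genes and the tested loci of the plastid isoprenoid, mevalonate and diterpene cyclase lists; filled points passed the adjusted threshold and loci with no name in the gene table carry their identifier. No MEP gene is filled, and the filled points are GGR, CPS2, KSL4 and KSL10.

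Markers of leaf and of root tissue were read from the same arrays. Of 7 leaf markers 6 lay above 0, 3 rose and none fell, with a median of 0.98, while 43.7% of all loci lay above 0 and 0.929% rose. This median is the value of the brighter probe of the marker PSBQ, whose other probe lay at 0.35. Among the leaf markers RBCS, a gene of the Rubisco small subunit, rose by 1.44 (limma adjusted p = 0.0276). The summed normalized signal of the leaf markers was 2709 and 2344 times the array's 75th percentile in the wild type and 2953 and 3020 times in line 40. Most of this sum came from RCA and CAB2R, which lay at only 0.09 and 0.18 (limma adjusted p = 0.762 and 0.515). CAB1R lay at -0.09. Of 8 root markers 3 lay above 0 and none passed by limma, with a median of -0.14. At an unadjusted p below 0.05 there were 2 higher and 1 lower (10% and 14.8% of all loci): the aquaporin genes PIP2-5 and PIP2-3 at 1.14 and 1.19, and LOC_Os02g40710 at -1.36. The summed root marker signal was 26.6 and 29.0 in the wild type and 56.7 and 43.6 in line 40, and most of it came from PIP2-5, with processed signals of 5379 and 8142 in the wild type and 15554 and 13224 in line 40. In whole seedlings a change in the share of a tissue and a change of RNA per cell cannot be told apart, and the part of either in the MEP values was not tested.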

How the data were processed

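Each scanner file gives spot intensity on a linear scale, extracted in 1 colour (Cy3) with Agilent Feature Extraction 10.7.1.1, per the file headers; the processed signal is background-subtracted and detrended within the array. The value table of the series deposited by the authors held the same intensity for all 62976 spots of each array (ratio within 0.1% of 1), with column medians of 61.8, 74.4, 57.1 and 63.3; its scale is linear and not centred, and 1-colour signals carry no direction. Flags (well above background, uneven, saturated) are other columns of the same files, per the file headers.

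Values here are log2 processed signals scaled to the 75th percentile of each array (signals of 367 and 488 for the wild type, 404 and 431 for line 40). Control spots (1319) and uneven spots were left out, which removed 32 probes, and repeated spots were averaged. Loci were tested where wild type or line 40 had the probe well above background on each of its arrays, each locus by its brightest probe, with limma 3.58.1 (R 4.3.3; lmFit and eBayes, two-sided, Benjamini-Hochberg adjustment over 36902 loci, threshold 0.05), and the code was tested on simulated data. The DXS pair was compared with an exact permutation test over arrays. The 4 arrays lay on 1 slide with 1 scan time. The number of arrays limits the precision.

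The members and lists were chosen with earlier results of these data known. Named genes were the 8 members, HOX24, LOC_Os06g05100 and the 4 tested loci of each other list with the smallest adjusted p; further list members are given for completeness and were chosen after their values were seen. The files hold locus identifiers without symbols. The enzyme of each of the 8 members had an entry in the RefSeq gene list (ASM3414082v1) on the same chromosome and in the same order, partly under another name (DXPS for both DXS genes, CMEK, ISPG and ISPH); which DXS gene is DXS1 or DXS3 rests on the locus list alone. By contrast, 1 of 8 cyclases, 5 of 10 plastid and 11 of 13 mevalonate loci had none and are not named. The array design rests on another assembly (IRGSP5), so no coordinates are given. Alternatives were quantile, cyclic loess and median scaling, normexp with an offset of 50 (on the median spot signal), other filters, averaging of probes, uneven spots kept, 1 array left out, and a replicate block.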

Additional observations from a re-analysis of the deposited data

How the results depend on the processing

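The count of loci past the threshold was 766, 406 after quantile normalization, 3260 after median scaling, 23 without the filter on dim probes and 504 with only loci well above background on all 4 arrays, and it ranged from 399 to 1802 with 1 array left out (399 without wild type replicate 1, 1802 without wild type replicate 2). The count of MEP members past it was 0 under 12 of 13 alternatives and 1, DXS1, after median scaling. HDR turned to -0.35 after quantile normalization, -0.26 after cyclic loess and -0.014 without line 40 replicate 2 (-0.014 to 0.030 with 1 array left out). HDS turned to 0.15 after median scaling and 0.010 without line 40 replicate 1 (-0.058 to 0.010 with 1 array left out). The shift of DXS3 against DXS1 was -1.25 after quantile normalization, -1.26 after cyclic loess and -1.11 after normexp. With single arrays left out it lay between -1.35 and -1.15, where non-overlapping groups could not reverse it. Each gene has 1 probe and array scaling cancels, so the other alternatives could not change the shift. In the plastid list 1 locus passed, 2 after median scaling or normexp, and 0 after quantile normalization, cyclic loess, without the filter or with the replicate block, and 0 to 0 with 1 array left out. In the mevalonate list 0 passed, 1 after median scaling, and 0 to 1 with 1 array left out. In the cyclase list 3 passed, and 0 without the filter. The cause of these moves was not tested. Both groups carry replicate numbers 1 and 2, and the labels do not say whether arrays with the same number share anything else. The difference between replicates correlated at -0.07 across loci between groups. With 2 arrays per group this value cannot decide the question. The replicate block gave 778 loci, 0 MEP members and a shift of -1.25.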
